A study of Homo sapiens with 12 samples.

Results

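Cholesterol and fatty acid synthesis was examined through 37 genes picked by symbol, of 58288 genes listed in the RNA-Seq table. They comprise 26 sterol genes, of which 18 encode biosynthetic enzymes, and 11 fatty acid genes, and the classes are reported apart. Every one of the 37 passed the filter on low values and was among the 15973 genes tested. The cells were FaDu, an established human head and neck squamous cell carcinoma line. All groups carried Cas9 and a gRNA delivered by lentivirus, with puromycin selection. STING WT cells received a non-targeting gRNA, and STING KO cells a gRNA against TMEM173, the gene that encodes STING. Each genotype was unirradiated (0 Gy) or given 4 fractions of 2 Gy (RT), with 3 libraries in each of the 4 groups. Whether a line was grown from 1 clone, and how long after radiation RNA was taken, are not given in the sources used here. Every KO-minus-WT difference is between a single line of each genotype. Loss of STING therefore cannot be told apart from other differences between those lines or their gRNAs. Nothing states that the 3 libraries of a group came from separate cultures, so p-values measure only the spread between these libraries.

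Cells build cholesterol from acetyl-CoA through mevalonate, isoprenoid units, squalene and lanosterol, and build fatty acids from the same precursor through malonyl-CoA. Transcription of both pathways is driven by sterol regulatory element-binding proteins, of which SREBF2 mainly serves sterol genes and SREBF1 mainly fatty acid genes. SCAP escorts these proteins out of the endoplasmic reticulum when sterols are low, INSIG proteins hold them back when sterols are high, and STING lies in the same membrane system.

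Expression is given as transcripts per 1000000 (TPM), a level corrected for transcript length and scaled within each library, so that levels of different genes can be set side by side. Differences are on the log2(TPM + 1) scale, with the standard error (SE) from a limma model of all 4 groups, and adjusted p means a Benjamini-Hochberg value over the 15973 tested genes with a threshold of 0.05. TMEM173 was listed at 21.7, 23.5 and 21.1 TPM in unirradiated STING WT libraries and at 5.18, 5.29 and 6.96 TPM in unirradiated STING KO libraries. After RT it was listed at 26.1, 21.4 and 21.7 TPM in WT and at 6.35, 7.41 and 7.08 TPM in KO. It was lower in every KO library, by a fitted difference of -1.77 (SE 0.11, limma adjusted p = 1.2e-05) without radiation and -1.60 (SE 0.11, adjusted p = 2.0e-05) with it. An exact two-sided permutation test gave p = 0.1 for each, the smallest possible with 3 against 3 libraries. Between 14860 and 15292 genes reached 1 TPM per library, and read depth is not recoverable from TPM. Since TPM is a share within a bulk library, fewer cells that express a gene and less of its RNA per cell cannot be told apart. Squamous epithelial markers summed to between 6425 and 9049 TPM per library, and leukocyte markers to at most 4.59 TPM, fibroblast markers to at most 9.34 TPM, endothelial markers to at most 23.9 TPM and adipocyte markers to at most 1.41 TPM. Among these non-epithelial markers, DCN, LUM, ADIPOQ and PTPRC were at or near 0. Others were listed in every library, namely COL1A1 (6.34 to 9.23 TPM), CDH5 (8.51 to 19.8), VWF (2.60 to 4.49), CD14 (2.62 to 4.35) and PLIN1 (0.75 to 1.41). Markers past the limma threshold for KO against WT were KRT17 (-0.29 unirradiated and -0.46 irradiated), KRT14 (0.24 unirradiated) and the leukocyte marker CD14 (0.40 unirradiated, at 4.35 TPM or less), and KRT5, at 0.52 and 0.54, did not pass. With radiation, DSG3 was lower (-0.38 in each genotype) and EPCAM (0.15 in WT and 0.18 in KO) and the endothelial marker CDH5 (0.61 in each) were higher, and the part of these markers in the results was not tested.

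Radiation was accompanied by lower SREBF1, SREBF2 and SCD in both genotypes. SREBF1 fell to 0.76 of its unirradiated level in STING WT and to 0.78 in STING KO, and SCD to 0.87 and 0.85. ACLY passed the test as higher in irradiated WT cells, and FADS2 and LPIN1 as higher in irradiated KO cells. For LPIN1, every irradiated WT library also lay above every unirradiated WT library. No member passed the test of whether radiation acted differently in the genotypes. No biosynthetic enzyme of the sterol pathway passed the test for radiation. SREBF2 alone of the 26 sterol genes did, in each genotype, where 3.74% of all genes passed in WT and 3.69% in KO. Its WT call was kept in 1 of the 12 fits with 1 library removed. For KO against WT, 0 of 37 members passed the threshold in unirradiated cells, where 1.73% of all tested genes passed. In irradiated cells 1 of 37, DHCR7, passed and was higher in KO, which is no larger a share than the 3.59% of all genes that passed. The KO comparisons and the radiation comparisons share libraries with each other and are not independent.

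The promoters of the members that passed the test in both radiation comparisons, and of DHCR7, are shown because SREBP proteins act on short promoter elements, often beside CCAAT boxes. RefSeq windows (GRCh38.p14) were found for 32 of the 37 members. The 250 bases before the start are printed 5′ to 3′ along the gene's own strand, with capitals marking TCACNCCAC, the core of the sterol regulatory element, and CCAAT. Both were searched on both strands, so that a CCAAT on the opposite strand reads ATTGG, and no match of one overlapped a match of the other in the windows shown. The windows are chr22:41832855-41833104 on the plus strand for SREBF2, chr17:17836987-17837236 on the minus strand for SREBF1, chr10:100346983-100347232 on the plus strand for SCD and chr11:71448394-71448643 on the minus strand for DHCR7. RefSeq and GENCODE place the starts differently, so that each window reaches into the GENCODE gene span, and that of DHCR7 lies wholly inside it.
SREBF2: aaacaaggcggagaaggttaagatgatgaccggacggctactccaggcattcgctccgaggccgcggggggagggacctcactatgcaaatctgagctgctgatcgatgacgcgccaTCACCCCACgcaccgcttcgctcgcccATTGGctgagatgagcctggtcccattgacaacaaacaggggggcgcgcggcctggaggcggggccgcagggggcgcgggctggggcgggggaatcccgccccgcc
SREBF1: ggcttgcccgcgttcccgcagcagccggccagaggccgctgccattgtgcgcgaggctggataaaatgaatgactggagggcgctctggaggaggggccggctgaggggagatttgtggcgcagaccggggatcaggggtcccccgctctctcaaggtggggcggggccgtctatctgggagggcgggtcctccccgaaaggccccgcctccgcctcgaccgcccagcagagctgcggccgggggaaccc
SCD: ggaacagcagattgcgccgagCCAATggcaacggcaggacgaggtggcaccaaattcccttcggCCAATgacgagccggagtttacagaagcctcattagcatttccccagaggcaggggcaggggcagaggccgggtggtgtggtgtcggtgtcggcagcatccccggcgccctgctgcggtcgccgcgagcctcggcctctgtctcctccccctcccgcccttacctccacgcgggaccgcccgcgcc
DHCR7: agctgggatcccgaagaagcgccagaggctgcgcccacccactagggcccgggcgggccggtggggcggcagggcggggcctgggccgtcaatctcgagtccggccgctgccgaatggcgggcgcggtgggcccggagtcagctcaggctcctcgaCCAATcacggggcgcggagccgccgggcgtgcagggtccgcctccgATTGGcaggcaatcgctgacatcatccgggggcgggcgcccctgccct
The SREBF2 window was the only member window with a TCACNCCAC match, which began at position -133 from the start, an element that 1.09% of the 27305 genes with a window hold. It also had 1 CCAAT. The SREBF1 window had neither, and the SCD and DHCR7 windows had 2 CCAAT matches each. CCAAT was present for 13 of the 15 sterol enzymes with a window (86.7%), for 4 of the 10 fatty acid genes with a window (40%) and for 37.0% of all genes. GGGCGG, the GC box, was present for 14 of those 15 sterol enzymes, for all 10 of those fatty acid genes and for 46.2% of all genes. Here all genes means the 27305 with a window, which were not limited to the genes tested, so they are not matched to the members for expression. These are matches of letters in a window and describe neither binding nor use of a site.

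Levels differed widely between members. SCD, the stearoyl-CoA desaturase, had the highest mean over the 12 libraries (744 TPM), followed by FASN, the fatty acid synthase (376 TPM), and SREBF2 (278 TPM). SQLE, which forms squalene epoxide, averaged 272 TPM, and HMGCS1, which makes HMG-CoA, 246 TPM. In all, 15 members averaged above 100 TPM. The cholesterol exporters ABCA1 and ABCG1 were lowest, at 1.02 and 1.14 TPM, and no other member was listed below 12.7 TPM in any library.

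SREBF2 (ENSG00000198911.11, chr22:41833079-41907308, plus strand, GRCh38) is the sterol arm's transcription factor. Its levels were 287, 298 and 288 TPM in unirradiated WT, 309, 293 and 291 in unirradiated KO, 260, 261 and 262 in irradiated WT, and 264, 264 and 258 in irradiated KO libraries. Each irradiated library lay below every unirradiated library of either genotype, and the genotypes overlapped within each arm. Radiation lowered SREBF2 by a difference of -0.16 (SE 0.035, limma adjusted p = 0.040) in WT and -0.18 (SE 0.035, adjusted p = 0.021) in KO. These were small changes, with fitted levels at 0.90 and 0.88 of the unirradiated ones. The WT call was kept in 1 of the 12 fits with 1 library removed, and the highest adjusted p among them was 0.12. The KO call was kept in 7 of 12. It was lost without unirradiated KO replicate 1 or 2, or without any irradiated KO library, with adjusted p up to 0.069. The KO-minus-WT difference was 0.032 (95% CI -0.046 to 0.11) without radiation and 0.0047 (95% CI -0.074 to 0.083) with it.

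INSIG1, a retention factor that is itself a target of these proteins, had the largest fitted radiation difference in WT among the regulators. Its TPM was 56.5, 91.2 and 57.3 in unirradiated WT and 45.5, 43.0 and 44.2 in irradiated WT libraries. The irradiated WT libraries lay below all unirradiated WT libraries, of which replicate 2 stood far above the others. In KO cells the values were 62.1, 62.5 and 59.1 TPM without radiation and 91.1, 47.6 and 50.4 TPM with it, where replicate 1 stood apart. The WT difference of -0.58 (SE 0.23, limma adjusted p = 0.22) did not pass the test. SCAP averaged 48.1 TPM and INSIG2 27.3 TPM. SCAP was 54.2, 49.0 and 49.4 TPM in irradiated WT and 44.1, 46.1 and 40.4 TPM in irradiated KO libraries, which do not overlap, with a difference of -0.22 (SE 0.073, adjusted p = 0.14).

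Of the 5 enzymes that lead from acetyl-CoA to isopentenyl diphosphate, none passed the test in any comparison. HMGCS1 was the most abundant and stayed between 227 and 257 TPM over the 12 libraries. The libraries gave 244, 256 and 256 TPM in unirradiated WT, 249, 256 and 250 in unirradiated KO, 252, 237 and 227 in irradiated WT, and 241, 257 and 232 in irradiated KO libraries. The groups overlapped in each of the 4 comparisons. PMVK, the phosphomevalonate kinase, was listed at 18.9, 18.9 and 19.2 TPM in unirradiated WT, 20.1, 21.9 and 21.0 in unirradiated KO, 16.2, 17.3 and 15.2 in irradiated WT, and 18.9, 16.3 and 16.3 in irradiated KO libraries. Irradiated libraries lay below the unirradiated libraries of their own genotype, with differences of -0.22 (SE 0.072, limma adjusted p = 0.14) in WT and -0.28 (SE 0.072, adjusted p = 0.064) in KO. MVK, the mevalonate kinase, was listed at 38.9, 32.5 and 40.5 TPM in unirradiated WT, 63.8, 37.4 and 40.2 in unirradiated KO, 31.1, 41.2 and 37.7 in irradiated WT, and 36.5, 44.2 and 38.9 in irradiated KO libraries. Its highest value was that of 1 unirradiated KO library, replicate 1, and all groups overlapped. ACAT2, the cytosolic thiolase, was higher in KO by 0.20 (SE 0.061, adjusted p = 0.16) without radiation and 0.21 (SE 0.061, adjusted p = 0.098) with it, and KO and WT libraries did not overlap in either arm. MVD, which decarboxylates the mevalonate intermediate, had an unirradiated difference of 0.20 (SE 0.066, adjusted p = 0.18). ACAT2 shares its locus with TCP1 and SOD2, and MVK with MMAB, on the opposite strand, and the strand setting of the counting is not given in the sources used here.

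IDI1 and FDPS form the isoprenoid building blocks. FDPS, the farnesyl diphosphate synthase, was listed at 195, 204 and 212 TPM in unirradiated WT, 227, 249 and 247 in unirradiated KO, 200, 201 and 203 in irradiated WT, and 206, 202 and 232 in irradiated KO libraries. Unirradiated KO libraries lay above all unirradiated WT libraries, and the irradiated groups overlapped. The unirradiated KO difference was 0.24 (SE 0.060, limma adjusted p = 0.088), and it reached the threshold in the fit without irradiated KO replicate 3. The human genome carries 8 pseudogenes named after FDPS, so its values are uncertain where reads could be split. IDI1, the isomerase, was listed at 125, 122 and 120 TPM in unirradiated WT, 126, 140 and 131 in unirradiated KO, 142, 136 and 126 in irradiated WT, and 140, 147 and 151 in irradiated KO libraries. Irradiated libraries lay above unirradiated ones in each genotype, with differences of 0.14 (SE 0.055) in both, at limma adjusted p = 0.23 in WT and 0.21 in KO.

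From squalene to lanosterol, no gene passed the test. SQLE was listed at 301, 325 and 236 TPM in unirradiated WT, 330, 254 and 253 in unirradiated KO, 300, 276 and 216 in irradiated WT, and 234, 233 and 311 in irradiated KO libraries. Its groups overlapped throughout. LSS, the lanosterol synthase, was listed at 29.02, 33.0 and 33.5 TPM in unirradiated WT, 35.7, 34.6 and 34.6 in unirradiated KO, 32.3, 33.0 and 29.5 in irradiated WT, and 34.2, 33.3 and 32.7 in irradiated KO libraries. The unirradiated KO libraries lay above the other groups, with a difference to WT of 0.13 (SE 0.064, limma adjusted p = 0.38). FDFT1, the squalene synthase, ranged from 119 to 167 TPM, and both extremes were in irradiated WT cells.

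DHCR7 (ENSG00000172893.15, chr11:71428193-71452868, minus strand) reduces 7-dehydrocholesterol in the last step of cholesterol synthesis. It was listed at 140, 141 and 158 TPM in unirradiated WT, 170, 156 and 165 in unirradiated KO, 148, 133 and 118 in irradiated WT, and 181, 168 and 166 in irradiated KO libraries. Every irradiated KO library lay above every irradiated WT library, and the unirradiated groups overlapped by 1 library on each side. DHCR7 was 1.29-fold higher in irradiated KO than in irradiated WT cells, a difference of 0.37 (SE 0.081, 95% CI 0.19 to 0.55, limma adjusted p = 0.034). The unirradiated difference was 0.16 (95% CI -0.021 to 0.34, adjusted p = 0.42), and the change in the KO effect with radiation was 0.21 (95% CI -0.043 to 0.46, adjusted p = 0.81). The call was lost in 6 of the 12 fits with 1 library removed, namely those without unirradiated KO replicate 3, irradiated WT replicate 2 or 3 or any irradiated KO library, with adjusted p up to 0.099. It was also lost with no filter on low values, without the variance trend and when only the 6 irradiated libraries were fitted.

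Among the other 7 enzymes that turn lanosterol into cholesterol, none passed the test. TM7SF2, a sterol reductase, was listed at 14.99, 16.1 and 13.6 TPM in unirradiated WT, 22.7, 18.4 and 21.6 in unirradiated KO, 14.1, 12.7 and 15.9 in irradiated WT, and 16.3, 20.3 and 19.6 in irradiated KO libraries. It had the largest unirradiated KO difference of any member, 0.46 (SE 0.11, limma adjusted p = 0.087), followed in irradiated cells by 0.37 (SE 0.11, adjusted p = 0.12). KO and WT libraries did not overlap in either arm. TM7SF2 overlaps VPS51 on the same strand. CYP51A1, the lanosterol demethylase, was the most abundant of these enzymes, at 239, 239 and 279 TPM in unirradiated WT, 236, 291 and 243 in unirradiated KO, 226, 229 and 215 in irradiated WT, and 266, 228 and 220 in irradiated KO libraries. Irradiated WT libraries lay below the unirradiated WT libraries, with a difference of -0.17 (SE 0.097, adjusted p = 0.40). CYP51A1 overlaps AC000120.2 and AC000120.3 on the same strand, and 3 pseudogenes carry its name. NSDHL, a sterol dehydrogenase, had differences of 0.18 (SE 0.050) both for unirradiated KO against WT, at adjusted p = 0.12, and for irradiated against unirradiated WT, at adjusted p = 0.084. MSMO1, the sterol C4 oxidase, differed by 0.16 (SE 0.054, adjusted p = 0.16) between irradiated KO and WT.

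SC5D, the sterol desaturase before DHCR7, varied most within groups of all members. SC5D values were 22.3, 27.6 and 53.6 TPM in unirradiated WT, 60.4, 31.2 and 27.3 in unirradiated KO, 24.3, 24.3 and 21.9 in irradiated WT, and 27.5, 62.1 and 29.95 in irradiated KO libraries. In 3 groups, 1 library lay far above the remaining ones, which the irradiated WT libraries resembled. The irradiated KO difference to WT was 0.64 with a SE of 0.39 (limma adjusted p = 0.45), so a difference of this size was within the spread. EBP, the sterol isomerase, had the same irradiated comparison at 0.49 (SE 0.21, adjusted p = 0.24), with 85.0, 56.9 and 62.3 TPM in WT and 100.2, 91.8 and 92.0 TPM in KO libraries, which did not overlap. In all, 8 members had a highest library above 1.5 times the lowest within some group, among them INSIG1, MVK, HSD17B7, AACS and ELOVL6. Pseudogenes are named after HSD17B7 (2) and AACS (1).

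**Figure D1:**
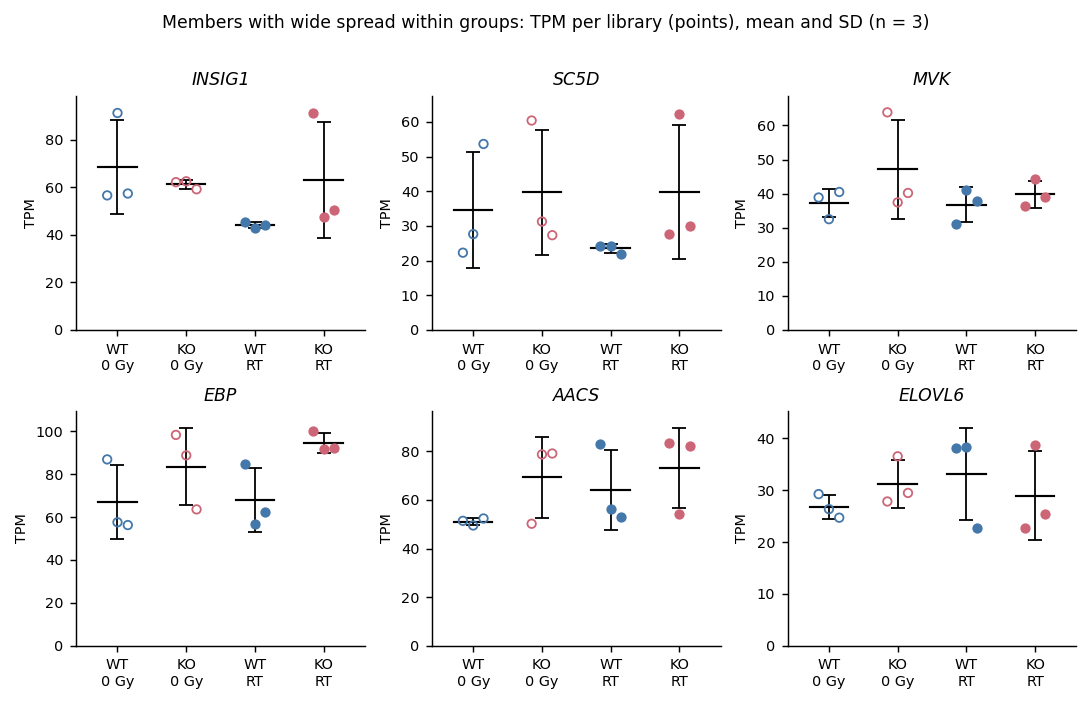
TPM per library for 6 members with wide spread within groups, with 1 panel per gene, a linear axis from 0, points for libraries, and bars for the mean and SD of 3 libraries (open points 0 Gy, filled points RT, blue WT, red KO). In SC5D, 1 library in each of 3 groups sits at 53.6, 60.4 or 62.1 TPM, away from the rest.

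Sterol transport genes did not pass the test in any comparison. STARD4, a carrier of cholesterol through the cytosol, was listed at 45.9, 47.4 and 47.1 TPM in unirradiated WT, 47.6, 53.5 and 52.6 in unirradiated KO, 39.6, 36.8 and 42.1 in irradiated WT, and 44.7, 47.7 and 52.0 in irradiated KO libraries. The irradiated WT libraries lay below all other libraries. Their difference to unirradiated WT was -0.24 (SE 0.071, limma adjusted p = 0.10), and irradiated KO differed from irradiated WT by 0.28 (SE 0.071, adjusted p = 0.065). NPC1, which lets cholesterol out of lysosomes, stayed between 35.2 and 44.5 TPM. ABCA1 was listed at 1.36, 1.00 and 0.83 TPM in unirradiated WT, 0.70, 0.91 and 0.89 in unirradiated KO, 1.01, 1.35 and 1.41 in irradiated WT, and 0.89, 0.93 and 0.90 in irradiated KO libraries. Irradiated KO libraries lay below irradiated WT libraries, with a difference of -0.24 (SE 0.13, adjusted p = 0.37). ABCG1 was listed at 0.99, 0.84 and 1.04 TPM in unirradiated WT, 0.96, 0.96 and 0.73 in unirradiated KO, 1.31, 1.23 and 1.42 in irradiated WT, and 1.57, 1.56 and 1.096 in irradiated KO libraries. It was higher after radiation without overlap in both genotypes, by 0.24 (SE 0.12, adjusted p = 0.31) in WT and 0.35 (SE 0.12, adjusted p = 0.14) in KO, at levels close to 1 TPM.

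As a class, the sterol genes tended to sit above WT in STING KO cells, and DHCR7 alone passed the test, in irradiated cells. In unirradiated cells 0 of the 26 passed the limma threshold, where 1.73% of all tested genes did (0.463% higher and 1.26% lower). At an unadjusted p under 0.05 there were 5, beside 14.3% of all genes. The KO libraries lay above the WT libraries without overlap for 10 of the 26, and below for 0, while 8.51% of all genes lay above and 12.1% below without overlap (20.6% together). Fitted differences were above 0 for 21 of the 26 and for 44.4% of all genes, with a median of 0.12 against -0.021 for all genes. Among the 18 enzymes 16 were above 0, with a median of 0.17, and HMGCS1 and SQLE were the exceptions. In irradiated cells 1 of the 26 passed, in the higher direction, where 3.59% of all genes passed (0.927% higher and 2.66% lower). Fitted differences were above 0 for 21 of the 26 and for 46.0% of all genes, and 9 genes lay above and 2 below without overlap (9.62% and 14.5% of all genes, 24.1% together). Their median was 0.078 against -0.017 for all genes, and the median over the 26 kept its sign under every alternative tried. Summed over the 26 genes, the level was 2406 ± 25.9 TPM in unirradiated WT, 2557 ± 74.2 in unirradiated KO, 2258 ± 114 in irradiated WT and 2434 ± 28.7 in irradiated KO libraries (SD, n = 3). The genes share regulators and libraries, so these counts describe the list and were not tested.

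**Figure D2:**
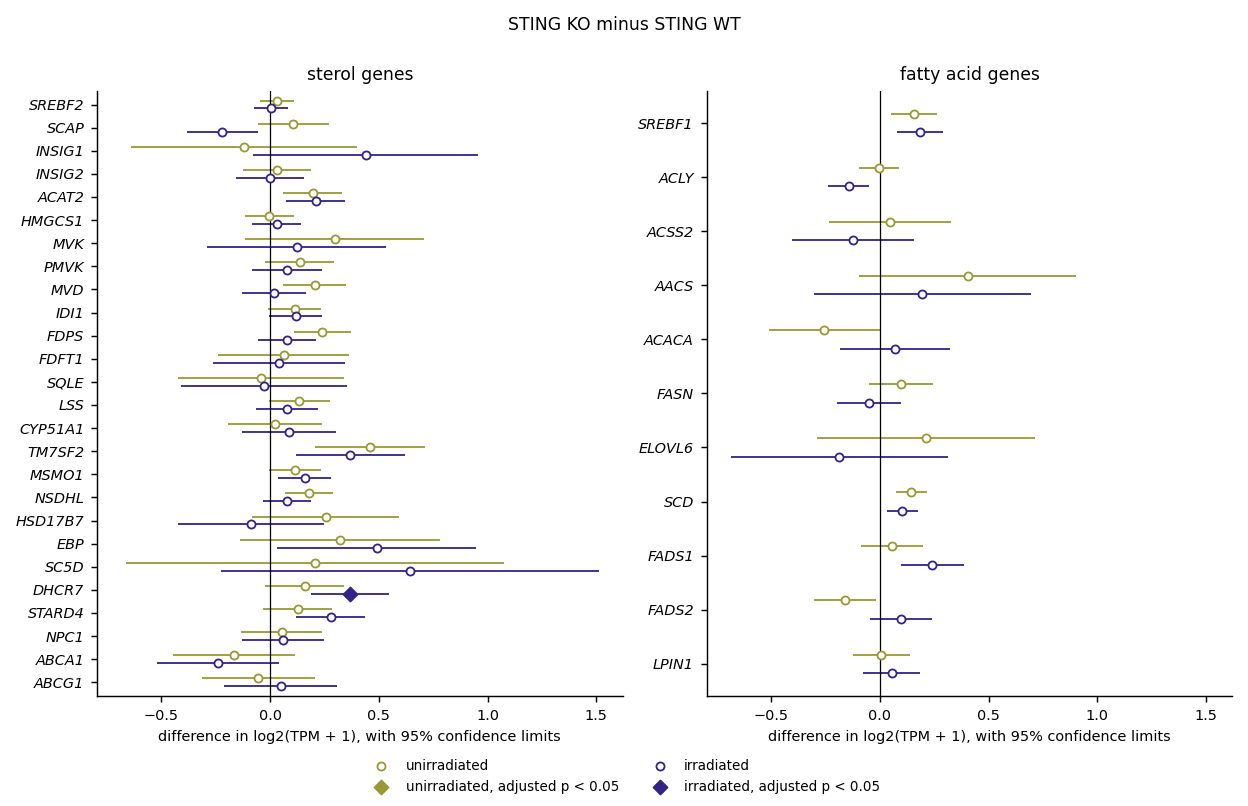
KO minus WT differences on the log2(TPM + 1) scale with 95% confidence limits for the 26 sterol genes (left) and the 11 fatty acid genes (right), unirradiated in olive and irradiated in dark blue, where filled diamonds mark an adjusted p under 0.05. DHCR7 in irradiated cells (0.37) carries the only filled mark.

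For radiation, 1 sterol gene, SREBF2, passed in each genotype. All tested genes passed at a rate of 3.74% in WT and 3.69% in KO. In WT 3 of the 26 lay above and 5 below the unirradiated libraries without overlap, beside 14.7% and 10.1% of all genes, and in KO also 3 above and 5 below, beside 13.7% and 10.6%. Fitted differences were below 0 for 17 of the 26 in WT and 19 in KO, with medians of -0.043 and -0.060, while 54.0% and 54.3% of all genes were above 0, with medians of 0.017 and 0.019. Without overlap in either direction there were 8 of the 26 in each genotype, beside 24.8% and 24.3% of all genes.

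SREBF1 (ENSG00000072310.16, chr17:17810399-17837002, minus strand) encodes the transcription factor of the fatty acid arm and had the lowest p of any member for radiation. SREBF1 levels were 160, 174 and 176 TPM in unirradiated WT, 197, 183 and 189 in unirradiated KO, 131, 131 and 126 in irradiated WT, and 148, 151 and 143 in irradiated KO libraries. Irradiated libraries lay below every unirradiated library of either genotype, and KO libraries lay above the WT libraries of the same arm. The group means were 170 ± 8.51, 190 ± 7.31, 129 ± 2.71 and 147 ± 4.16 TPM in the same order (SD, n = 3). Radiation lowered SREBF1 by a difference of -0.39 (SE 0.048, limma adjusted p = 0.0019) in WT and -0.36 (SE 0.048, adjusted p = 0.0032) in KO. Both calls held with each of the 12 libraries left out in turn and in all 8 other settings. The radiation effects differed between genotypes by 0.027 (95% CI -0.12 to 0.18). KO exceeded WT by 0.16 (SE 0.048, adjusted p = 0.16) without radiation and by 0.18 (SE 0.048, adjusted p = 0.069) with it, and the irradiated difference passed the threshold under median-of-ratios and quantile scaling. RAI1 overlaps SREBF1 on the opposite strand.

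SCD (ENSG00000099194.5, chr10:100347124-100364834, plus strand) introduces the double bond of oleate and palmitoleate and is a target of SREBF1. The values were 753, 763 and 765 TPM in unirradiated WT, 835, 831 and 856 in unirradiated KO, 659, 678 and 654 in irradiated WT, and 713, 729 and 696 in irradiated KO libraries. The 4 groups did not overlap, and stood in the order unirradiated KO, unirradiated WT, irradiated KO and irradiated WT from highest to lowest. Their means were 841 ± 13.1, 760 ± 6.45, 713 ± 16.7 and 663 ± 12.5 TPM in that order (SD, n = 3), so the spread within groups was small. Radiation lowered SCD by -0.20 (SE 0.032, limma adjusted p = 0.0092) in WT and -0.24 (SE 0.032, adjusted p = 0.0035) in KO. Both calls were kept whichever library was left out and were lost when only the 6 libraries compared were fitted, at adjusted p of 0.070 and 0.053. KO exceeded WT by 0.14 (SE 0.032, adjusted p = 0.058) without radiation, which passed the threshold under median-of-ratios scaling and with a stricter filter, and by 0.10 (SE 0.032, adjusted p = 0.12) with radiation. A pseudogene, SCDP1, carries its name.

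**Figure D3:**
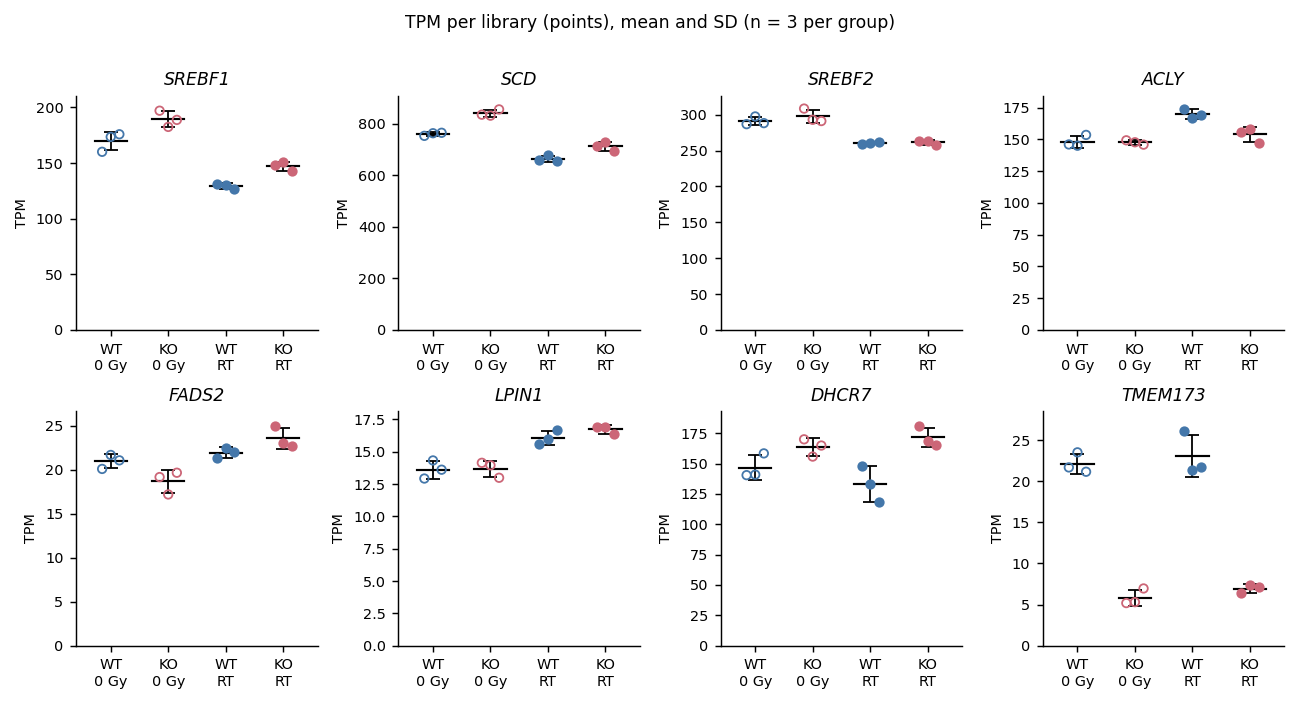
TPM per library for the 7 members with an adjusted p under 0.05 in any comparison and for TMEM173, with 1 panel per gene, a linear axis from 0, points for libraries, and bars for the mean and SD of 3 libraries (open points 0 Gy, filled points RT, blue WT, red KO). SREBF1, SCD and SREBF2 sit lower after RT in both genotypes, and the 4 groups of SCD do not overlap.

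Supply of cytosolic acetyl-CoA was led by ACLY (ENSG00000131473.16, chr17:41866908-41930542, minus strand), the ATP citrate lyase. Its values were 146, 145 and 153 TPM in unirradiated WT, 149, 148 and 146 in unirradiated KO, 174, 167 and 169 in irradiated WT, and 156, 158 and 147 in irradiated KO libraries. The irradiated WT libraries lay above all other libraries. ACLY rose with radiation in WT by 0.20 (SE 0.042, limma adjusted p = 0.031). In KO the difference was 0.059 (95% CI -0.033 to 0.15, adjusted p = 0.51), and the effects differed by -0.14 (95% CI -0.27 to -0.0085, adjusted p = 0.74), which did not pass. Leaving out unirradiated WT replicate 1 or 2 or any irradiated WT library ended the WT call, with adjusted p up to 0.11. That call was also lost without the variance trend and when only the 6 libraries compared were fitted. AACS, the acetoacetyl-CoA synthetase, was listed at 51.4, 49.5 and 52.4 TPM in unirradiated WT, 50.2, 78.7 and 79.1 in unirradiated KO, 82.9, 56.2 and 52.8 in irradiated WT, and 83.4, 54.2 and 82.2 in irradiated KO libraries. Its libraries outside unirradiated WT stood either near 50 TPM or near 80 TPM, and neither of its largest differences, 0.40 (SE 0.22, adjusted p = 0.47) for unirradiated KO and 0.29 (SE 0.22, adjusted p = 0.56) for irradiated WT, passed. ACSS2, the acetyl-CoA synthetase, ranged from 21.5 to 32.5 TPM.

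Chain synthesis is carried out by ACACA, the acetyl-CoA carboxylase, and FASN, and neither passed the test. FASN was listed at 350, 391 and 386 TPM in unirradiated WT, 432, 397 and 375 in unirradiated KO, 370, 353 and 387 in irradiated WT, and 357, 375 and 340 in irradiated KO libraries. Irradiated KO libraries lay just below the unirradiated KO libraries, with a difference of -0.17 (SE 0.066, limma adjusted p = 0.21). ACACA was listed at 132, 133 and 104 TPM in unirradiated WT, 99.5, 113 and 94.7 in unirradiated KO, 99.6, 104 and 112 in irradiated WT, and 121, 115 and 96.2 in irradiated KO libraries. Its groups overlapped throughout, and the unirradiated KO difference was -0.26 (SE 0.11, adjusted p = 0.35).

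FADS2 (ENSG00000134824.13, chr11:61792980-61867354, plus strand), the delta-6 desaturase of polyunsaturated fatty acids, moved with radiation in KO cells. It was listed at 20.1, 21.7 and 21.1 TPM in unirradiated WT, 19.2, 17.2 and 19.7 in unirradiated KO, 21.3, 22.5 and 21.98 in irradiated WT, and 25.0, 23.0 and 22.7 in irradiated KO libraries. Unirradiated KO libraries lay lowest and irradiated KO libraries highest of the 4 groups. FADS2 rose with radiation in KO by 0.32 (SE 0.065, limma adjusted p = 0.024), 1.25-fold, and in WT the difference was 0.064 (95% CI -0.080 to 0.21, adjusted p = 0.68). The effects differed by 0.26 (95% CI 0.055 to 0.46, adjusted p = 0.72), which did not pass. The KO call was lost without unirradiated KO replicate 1 or 2 or any irradiated KO library, with adjusted p up to 0.080. FADS2 overlaps FEN1 on the same strand and its neighbour FADS1 on the opposite strand. FADS1, the delta-5 desaturase, was listed at 158, 161 and 164 TPM in irradiated WT and 180, 178 and 215 TPM in irradiated KO libraries, without overlap and with a difference of 0.24 (SE 0.065, adjusted p = 0.075). Its radiation difference in WT was -0.19 (SE 0.065, adjusted p = 0.16), which passed the threshold in the fit without irradiated KO replicate 3. ELOVL6, an elongase of saturated chains, was listed at 29.2, 26.3 and 24.7 TPM in unirradiated WT, 27.8, 36.5 and 29.5 in unirradiated KO, 38.2, 38.3 and 22.8 in irradiated WT, and 22.8, 38.7 and 25.4 in irradiated KO libraries, with overlap throughout.

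LPIN1 (ENSG00000134324.11, chr2:11677595-11827409, plus strand), a phosphatidate phosphatase that yields diacylglycerol, was higher after radiation in both genotypes and passed the test in KO cells. LPIN1 levels were 12.9, 14.3 and 13.6 TPM in unirradiated WT, 14.1, 14.0 and 13.0 in unirradiated KO, 15.6, 16.0 and 16.7 in irradiated WT, and 16.9, 16.9 and 16.3 in irradiated KO libraries. All irradiated libraries lay above all unirradiated ones. The difference was 0.27 (SE 0.059, limma adjusted p = 0.034) in KO and 0.22 (SE 0.059, adjusted p = 0.069) in WT, and these differed by 0.046 (95% CI -0.14 to 0.23). The KO call was kept in 5 of the 12 fits with 1 library removed. It was lost without any unirradiated or irradiated KO library or without irradiated WT replicate 2, with adjusted p up to 0.12.

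Counted together, 3 of the 11 fatty acid genes passed for radiation in WT (1 higher and 2 lower, where 2.24% of all genes were called higher and 1.50% lower), and 4 in KO (2 higher and 2 lower, where 2.00% were called higher and 1.70% lower). Libraries lay above without overlap for 3 and below for 3 in WT (14.7% and 10.1% of all genes), and above for 2 and below for 3 in KO (13.7% and 10.6% of all genes). The median difference of the 11 was -0.011 in WT and -0.0019 in KO, and each median took either sign among the alternatives, from -0.040 to 0.068 and from -0.11 to 0.038. For KO against WT, 0 of the 11 passed in either arm by limma, where 1.73% of all genes passed unirradiated and 3.59% irradiated. In each arm 4 of the 11 had an unadjusted p under 0.05, where the shares of all genes were 14.3% and 17.9%. KO libraries lay above without overlap for 3 and below for 1 unirradiated (8.51% and 12.1% of all genes), and above for 4 and below for 1 irradiated (9.62% and 14.5% of all genes). Fitted differences were above 0 for 8 of the 11 unirradiated and 7 irradiated (44.4% and 46.0% of all genes), with medians of 0.056 and 0.070. The summed level was 1902 ± 34.8 TPM in unirradiated WT, 2036 ± 13.0 in unirradiated KO, 1762 ± 16.0 in irradiated WT and 1842 ± 33.4 in irradiated KO libraries (SD, n = 3), a sum to which SCD contributes most.

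**Figure D4:**
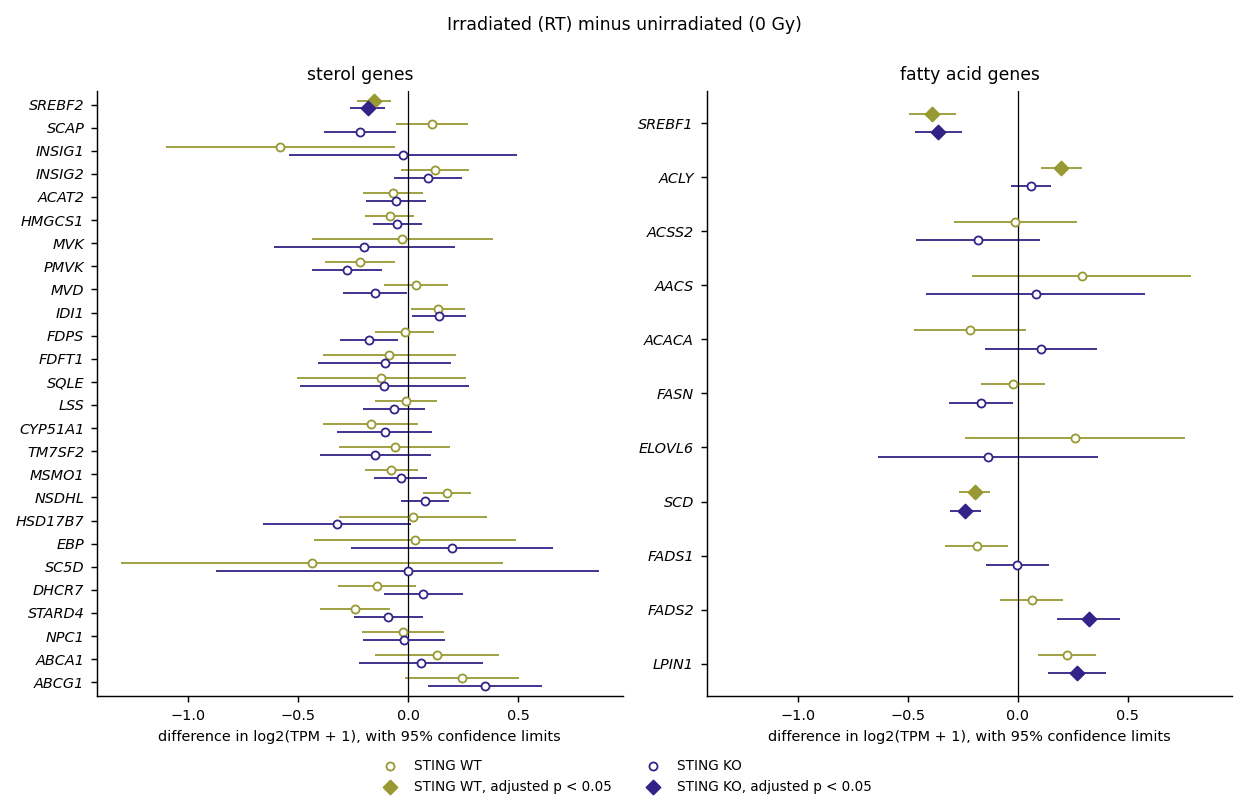
Irradiated minus unirradiated differences on the log2(TPM + 1) scale with 95% confidence limits for the 26 sterol genes (left) and the 11 fatty acid genes (right), STING WT in olive and STING KO in dark blue, where filled diamonds mark an adjusted p under 0.05. SREBF1, SCD and SREBF2 are marked below 0 in both genotypes, ACLY above 0 in WT, and FADS2 and LPIN1 above 0 in KO.

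**Figure D5:**
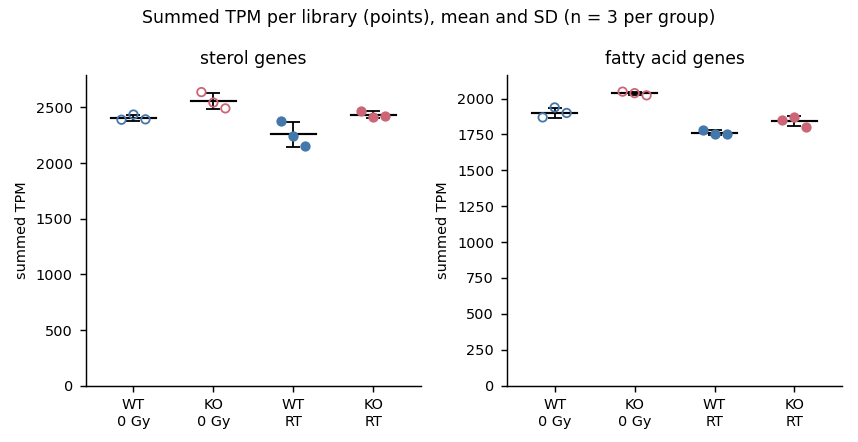
Summed TPM per library of the 26 sterol genes (left) and of the 11 fatty acid genes (right), on linear axes from 0, with points for libraries and bars for the mean and SD of 3 libraries (open points 0 Gy, filled points RT, blue WT, red KO). The group means of the fatty acid sums run from 2036 TPM in unirradiated KO to 1762 TPM in irradiated WT.

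No member passed the test of whether radiation acted differently in STING KO and STING WT cells, by limma, and 3 of the 15973 genes did (0.0188%). At an unadjusted p under 0.05 there were SCAP, ACLY and FADS2, 3 of 37, beside 6.61% of all genes. For SCAP the KO effect of radiation was below the WT effect by -0.33 (SE 0.10, limma adjusted p = 0.68).

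Genes around the pathways were taken as 4 further lists. Of the 12 genes of the isoprenoid branch, which covers prenylation, dolichol and ubiquinone, and of the 16 tested fatty acid oxidation genes, 0 passed by limma in any comparison. All tested genes passed at rates of 1.73% to 3.74% in the KO and radiation comparisons. At an unadjusted p under 0.05, these lists held between 1 and 2 and between 3 and 5 genes in the KO and radiation comparisons, where the shares of all genes were 14.3% to 18.2%. Of the 24 tested sterol handling genes, LIPA, the lysosomal acid lipase, was lower in irradiated KO than in irradiated WT, by -0.25 (SE 0.058, limma adjusted p = 0.045). In that comparison 3.59% of all tested genes passed. LIPA overlaps interferon-induced genes on the opposite strand, and the part of this overlap in its values was not tested. LBR, the lamin B receptor with sterol reductase activity, fell with radiation in WT by 0.26 on the log2 scale (SE 0.058, limma adjusted p = 0.041). In KO its mean also fell, from 108 to 91.3 TPM without overlap of libraries, and did not pass. Of all tested genes, 3.74% passed for radiation in WT and 3.69% in KO. With 1 of the 12 libraries left out in turn, the calls held in 2 fits for LIPA and 3 for LBR, with limma adjusted p up to 0.14 and 0.12.

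Of 29 tested genes of fatty acid elongation, activation and esterification, 3 passed for radiation in each genotype and 1 for irradiated KO against WT. All tested genes passed at 3.74% for radiation in WT, 3.69% in KO and 3.59% for irradiated KO. ME1, the NADPH-forming malic enzyme, fell with radiation in both genotypes. Its differences were -0.19 (SE 0.040) in each, at limma adjusted p of 0.029 in WT and 0.028 in KO. FABP5, a fatty acid carrier, rose in irradiated WT by 0.26 (SE 0.062, adjusted p = 0.049) and was lower in irradiated KO than in irradiated WT by -0.27 (SE 0.062, adjusted p = 0.044). With radiation its KO mean also rose, from 163 to 179 TPM, without passing. ACSL1, an acyl-CoA synthetase, fell in irradiated WT by 0.56 on the log2 scale (SE 0.13, adjusted p = 0.043). Its KO mean fell with radiation as well, from 39.4 to 32.9 TPM, without passing. In irradiated KO cells ELOVL4, an elongase of very long chains, rose by 0.28 (SE 0.063, adjusted p = 0.040) and SCD5, the other stearoyl-CoA desaturase, rose by 0.25 (SE 0.060, adjusted p = 0.049), opposite in direction to SCD. The WT means of both rose too, from 27.1 to 31.0 TPM for ELOVL4 and from 15.2 to 16.3 TPM for SCD5, without passing. With 1 of the 12 libraries left out in turn, the ME1 calls held in 7 fits for WT and 6 for KO, and those of FABP5, ACSL1, ELOVL4 and SCD5 in 2 or fewer, with limma adjusted p up to 0.15.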

How the data were processed

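The authors sequenced polyadenylated RNA as 100 bp paired ends and deposited a single table of TPM values for 58288 genes and 12 libraries. HISAT2, StringTie, DESeq2 and hg38 are named in the submitters' processing notes. Their roles, the annotation and the strand setting are not given in the sources used here. Each library summed to 1000000, so depth is unknown and the spread between libraries is the measure of error. Columns headed NT2 and A63 were taken as STING WT and STING KO. A63 is not among the sample labels, and it was matched through the column heads of a supplementary table with the same values.

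The deposited values were put on a log2 scale after adding 1, keeping 15973 genes that reached 1 TPM in at least 3 libraries. Group means were fitted with limma 3.58.1 in R 4.3.3 (eBayes with trend, 8 residual degrees of freedom), with 5 contrasts and Benjamini-Hochberg adjustment over all genes. The code was tested on simulated data. DESeq2, the authors' tool, needs counts, which were not used here. Libraries of the same number did not deviate together (mean r = -0.0097 over 18 pairs), so the numbers were not taken as pairs.

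Values in every library are given for members past the threshold in any contrast, with the highest mean of their role group, or with the largest difference of that group in the WT radiation or unirradiated KO comparison, and further values where groups did not overlap. From the other lists, genes past the threshold are named. The result of 1 gene of these lists is not reported here. CH25H and the library values of SCAP, EBP and FADS1 were chosen after values were seen. The members and lists were chosen with earlier results of these data known. Alternatives were another pseudocount, filter, scaling, variance model and set of libraries, a replicate block, and each library left out. Coordinates are from GENCODE 29 (GRCh38), on which all 37 members were placed, and promoter sequences are from RefSeq.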

Additional observations from a re-analysis of the deposited data

Results flagged for a closer look

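FADS2, the delta-6 desaturase, had KO-minus-WT differences of opposite sign in the 2 arms. It was lower in every unirradiated KO library than in every unirradiated WT library, with a difference of -0.16 on the log2(TPM + 1) scale, and higher in every irradiated KO library than in every irradiated WT library, with a difference of 0.099. The direct test of this change, an interaction term in limma, gave 0.26 (SE 0.091, unadjusted p = 0.018, adjusted p = 0.72) and did not pass the threshold over all 15973 genes. FADS2 lies against FADS1 on the opposite strand and overlaps FEN1, and how overlapping reads were assigned is not given in the sources used here.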

How the results depend on the processing

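Of the member calls, those of SREBF1 held in every alternative tried, and those of SCD in all but the fit to the 6 libraries compared. No member call changed direction in any alternative. Over all genes, fits to only the 6 libraries compared called 103 genes for unirradiated KO (276 in the full fit), 252 for irradiated KO (573), 166 for radiation in WT (597) and 195 for radiation in KO (590). The replicate block called 378 for irradiated KO, 315 for radiation in WT, 359 for radiation in KO and 1 for the interaction, which had 3, against 7 without the filter and 1 without the variance trend. The block gave 2 fatty acid genes for radiation in each genotype and 0 sterol genes in every contrast. Of 12 libraries, 2 were closest to the others of their own number, a hint from the data and not from the design.

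Sterol calls fell from 1 to 0 for irradiated KO and for radiation in WT without the filter, without the variance trend, under the block and in the 6-library fits, and for radiation in KO under the last 3. They numbered 2 for radiation in KO under median-of-ratios scaling, which added PMVK. Fatty acid calls rose from 0 to 1 for unirradiated KO under median-of-ratios scaling or a mean TPM of at least 5 (SCD) and for irradiated KO under median-of-ratios or quantile scaling (SREBF1). They were 1 in the 6-library fits for radiation in each genotype, against 3 in WT and 4 in KO. The ACLY, FADS2 and LPIN1 calls were lost in the 6-library fits and under the block, and that of ACLY also without the variance trend.

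With each library left out, calls over all genes ranged from 172 to 292 for unirradiated KO, 313 to 542 for irradiated KO, 242 to 526 for radiation in WT, 268 to 553 for radiation in KO and 1 to 9 for the interaction. Sterol calls ranged from 0 to 1 in each KO and radiation contrast, and fatty acid calls from 2 to 4 for radiation in either genotype. The cause of these shifts was not tested, beyond the fewer libraries fitted. TPM carries no counts, so the precision of values near 1 TPM, such as those of ABCA1 and ABCG1, cannot be given.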

Other observations

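CH25H, which makes 25-hydroxycholesterol, a sterol that holds back SREBP activation, was among 2 of the 26 sterol handling genes that fell under the filter on low values and were not tested. It was listed at 0.34, 0.11 and 0.16 TPM in unirradiated WT, 0, 0.039 and 0.037 in unirradiated KO, 0.51, 1.13 and 0.55 in irradiated WT, and 0.048, 0.054 and 0 in irradiated KO libraries. The KO libraries lay below the WT libraries in both arms, and the irradiated WT libraries were highest. Levels this low may rest on few reads, whose number is unknown, and no test was run.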
